A study of Homo sapiens with 6 samples.

Results

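The genes described here are 34 genes of homologous recombination, the Fanconi anaemia pathway, mismatch repair and the checkpoint that responds to broken DNA. They were taken by name from a table of 58825 Ensembl genes, and all 34 were found, each under 1 identifier, and passed the filter on low counts. RNA had been sequenced from FaDu, an established line of hypopharyngeal squamous carcinoma. There were 3 libraries titled for a hairpin that targets NSUN2 (shNSUN2) and 3 titled FaDu, whose titles name no hairpin. NSUN2 is a methyltransferase that places 5-methylcytosine on RNA. All 6 libraries came from the same line, and no title names a non-targeting hairpin. Neither the hairpin's sequence nor its delivery is given in the labels. The titles do not say whether the 3 shNSUN2 libraries carry the same hairpin. Effects of NSUN2 loss and of carrying a hairpin therefore cannot be told apart. The labels do not say whether replicates were separate cultures. Each p-value therefore measures the spread between these libraries, which may be technical.

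Cells repair broken chromosomes by homologous recombination, in which the ends are cut back to single strands, coated with a protein filament and paired with an intact copy. The Fanconi pathway senses crosslinks between the strands of DNA that stall replication forks, marks the FANCD2-FANCI pair with ubiquitin and hands the lesion to recombination. The kinases ATM and ATR report breaks and stalled forks to CHEK2 and CHEK1, which hold the cell cycle. Many of these genes are transcribed mostly in S phase, so that their RNA in bulk samples also follows how many cells are replicating. In bulk RNA, more cells in a phase and more RNA per cell cannot be told apart.

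Of the 34 genes, 9 rose in shNSUN2, none fell and 25 did not pass the test (edgeR's quasi-likelihood test, adjusted p under 0.05 over 19081 genes). That is 26.5% of the 34 against 8.54% of all genes called higher, and none against 9.97% of all genes called lower. The 9 were CHEK1, RAD51C, XRCC3, RAD54L, EXO1, BLM, FANCA, FANCG and FANCD2, with log2 fold changes of 0.57 to 0.97. They stand at different steps, from checkpoint kinase and resection to strand exchange, the Fanconi core complex and its substrate. The median log2 fold change of the 34 was 0.29, against -0.01 for all genes tested and 0.29 for a list of 26 housekeeping genes. With every shNSUN2 library above every FaDu library there were 12 of the 34, or 35.3%, against 20.3% of all genes tested. With every shNSUN2 library below every FaDu library there was 1 of the 34, or 2.94%, against 22.1% of all genes. Of the 26 housekeeping genes, 14 had every shNSUN2 library above every FaDu library and 1 had every one below. The number of calls among the 34 moved with single libraries. It was 3, 4 and 3 without FaDu replicate 1, 2 or 3, 5 without shNSUN2 replicate 1, 9 without shNSUN2 replicate 2 and 15 without shNSUN2 replicate 3, and CHEK1, EXO1 and FANCA were called in each of these fits. Over all genes, calls in either direction made up 18.5%. Among all genes the share called higher was 3.1%, 2.38% and 2.51% without FaDu replicate 1, 2 or 3 and 4.46%, 8.31% and 10.5% without shNSUN2 replicate 1, 2 or 3.

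Totals were 58577723 to 72788971 estimated counts in shNSUN2 and 53612358 to 72043755 in FaDu. NSUN2 itself (chromosome 5, 6599239 to 6633291, GRCh38) had 50.4, 34.6 and 39.6 CPM (estimated counts scaled to library size) in the shNSUN2 libraries against 169, 173 and 156 CPM in the FaDu libraries, or 25.1% of the FaDu mean (exact two-sided permutation test, p = 0.1, the smallest that 3 against 3 allow). The shNSUN2 libraries differed in composition. Across 14143 genes, the log2 difference of replicate 3 from the mean of the other two shNSUN2 libraries had a Spearman rho of 0.537 with GC content and -0.361 with exonic length. The same values ran the other way for replicate 1 (-0.448 and 0.31) and replicate 2 (-0.306 and 0.207), whose comparisons each include replicate 3. In FaDu the rho with GC content was 0.201, -0.262 and 0.0551 for replicates 1, 2 and 3. Genes are not independent replicates. Of 9 squamous epithelial markers, all 9 were above 0 in both groups, with summed levels of 2214 to 2675 CPM in shNSUN2 and 4282 to 4356 CPM in FaDu. Markers of cells that do not belong to the line were also present in shNSUN2. The 8 plasma cell markers summed to 2.31 to 7.83 CPM in shNSUN2 and 0 to 0.267 CPM in FaDu, with IGKC, IGHM, IGLC2 and IGLC3 at 0 in every FaDu library. The 9 prostate epithelial markers summed to 47.0 to 62.6 CPM in shNSUN2 and 28.3 to 31.6 CPM in FaDu, with MSMB, TGM4 and KLK4 at 0 in every FaDu library. For leukocyte markers the sums were 37.8 to 46.1 CPM in shNSUN2 and 31.4 to 51.6 CPM in FaDu, with 4 of 9 markers above 0 in shNSUN2 and 3 of 9 in FaDu, and PTPRC, CD3D and MS4A1 at 0 in all 6 libraries. Smooth muscle markers summed to 31.5 to 45.4 CPM in shNSUN2 and 37.9 to 43.9 CPM in FaDu, and fibroblast markers to 6.44 to 11.6 CPM in shNSUN2 and 9.04 to 9.57 CPM in FaDu. ACTG2, CNN1, COL1A2 and DCN of these lists were at 0 in every FaDu library. The part of these transcripts in the results below was not tested.

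Promoters are shown for the 4 genes with the smallest adjusted p, CHEK1, EXO1, FANCA and RAD54L, and for the 2 with the most negative log2 fold change, ATM and RBBP8, so that genes that rose can be read beside genes that did not. The sequences are from RefSeq (GRCh38.p14) and run 5′ to 3′ on the gene's strand over the 250 bases before the annotated start. Capitals mark the letters CCAAT or TTTGAA, read on either strand (ATTGG or TTCAAA on the other).
CHEK1, chr11:125625979-125626228, + strand: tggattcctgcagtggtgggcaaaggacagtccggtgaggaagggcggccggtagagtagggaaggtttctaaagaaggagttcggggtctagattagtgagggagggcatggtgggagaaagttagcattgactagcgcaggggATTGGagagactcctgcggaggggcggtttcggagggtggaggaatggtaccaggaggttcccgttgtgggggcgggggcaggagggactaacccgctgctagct
EXO1, chr1:241847954-241848203, + strand: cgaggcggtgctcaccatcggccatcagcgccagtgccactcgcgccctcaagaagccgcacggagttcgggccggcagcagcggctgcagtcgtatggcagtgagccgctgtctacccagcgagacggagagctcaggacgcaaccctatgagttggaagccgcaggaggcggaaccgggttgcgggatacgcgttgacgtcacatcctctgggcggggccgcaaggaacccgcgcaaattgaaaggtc
FANCA, chr16:89816648-89816897, - strand: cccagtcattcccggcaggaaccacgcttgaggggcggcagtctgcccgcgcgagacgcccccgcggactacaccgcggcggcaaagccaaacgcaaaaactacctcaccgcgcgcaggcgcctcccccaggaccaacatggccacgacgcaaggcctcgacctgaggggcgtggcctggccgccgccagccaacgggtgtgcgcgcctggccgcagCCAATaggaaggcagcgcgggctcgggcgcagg
RAD54L, chr1:46247438-46247687, + strand: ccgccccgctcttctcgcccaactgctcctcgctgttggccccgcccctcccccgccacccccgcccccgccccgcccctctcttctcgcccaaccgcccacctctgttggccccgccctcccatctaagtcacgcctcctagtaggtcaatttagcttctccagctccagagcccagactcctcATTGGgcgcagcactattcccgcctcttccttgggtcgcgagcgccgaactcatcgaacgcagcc
ATM, chr11:108222817-108223066, + strand: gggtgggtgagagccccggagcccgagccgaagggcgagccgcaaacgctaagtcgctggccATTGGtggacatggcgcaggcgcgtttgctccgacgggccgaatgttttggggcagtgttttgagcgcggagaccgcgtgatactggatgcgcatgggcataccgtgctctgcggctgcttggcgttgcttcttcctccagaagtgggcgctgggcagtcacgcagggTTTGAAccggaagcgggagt
RBBP8, chr18:22933078-22933327, + strand: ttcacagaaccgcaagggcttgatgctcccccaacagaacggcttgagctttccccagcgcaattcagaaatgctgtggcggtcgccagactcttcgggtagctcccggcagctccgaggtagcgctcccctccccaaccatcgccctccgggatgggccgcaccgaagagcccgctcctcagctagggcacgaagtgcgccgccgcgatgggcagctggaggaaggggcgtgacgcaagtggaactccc

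Of the 34 genes, 30 had a promoter in the RefSeq table, among them all 9 that rose. In the window from 250 bases before to 50 after the start, CCAAT was found on either strand in 17 of the 30 (56.7%) and in 34.6% of 35116 promoters in the table. It was in 5 of the 9 genes that rose and in 12 of the 21 others. CHEK1 held it 105 bases before the start, FANCA 33 and RAD54L 65 bases before, and RAD54L had another copy across the start, which is not in capitals above. The E2F letters TTTGGCGC or TTTCCCGC were in 4 of the 30, FANCC, FANCD2, MSH6 and XRCC2 (13.3%), and in 2.27% of all promoters. Of these 4, FANCD2 was called and the other 3 were not. The CHR letters TTTGAA were in ATM, BRIP1 and FANCC (3 of 30, against 15.2% of all promoters), none of which was called. A member counted if any of its promoters in the table held the letters, whereas the share over the table counts each promoter. The 2 kinds of share are therefore not quite alike. The motifs were searched separately, and matches of different motifs may share a base. A match is a description of the letters and not a binding site.

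**Figure D1:**
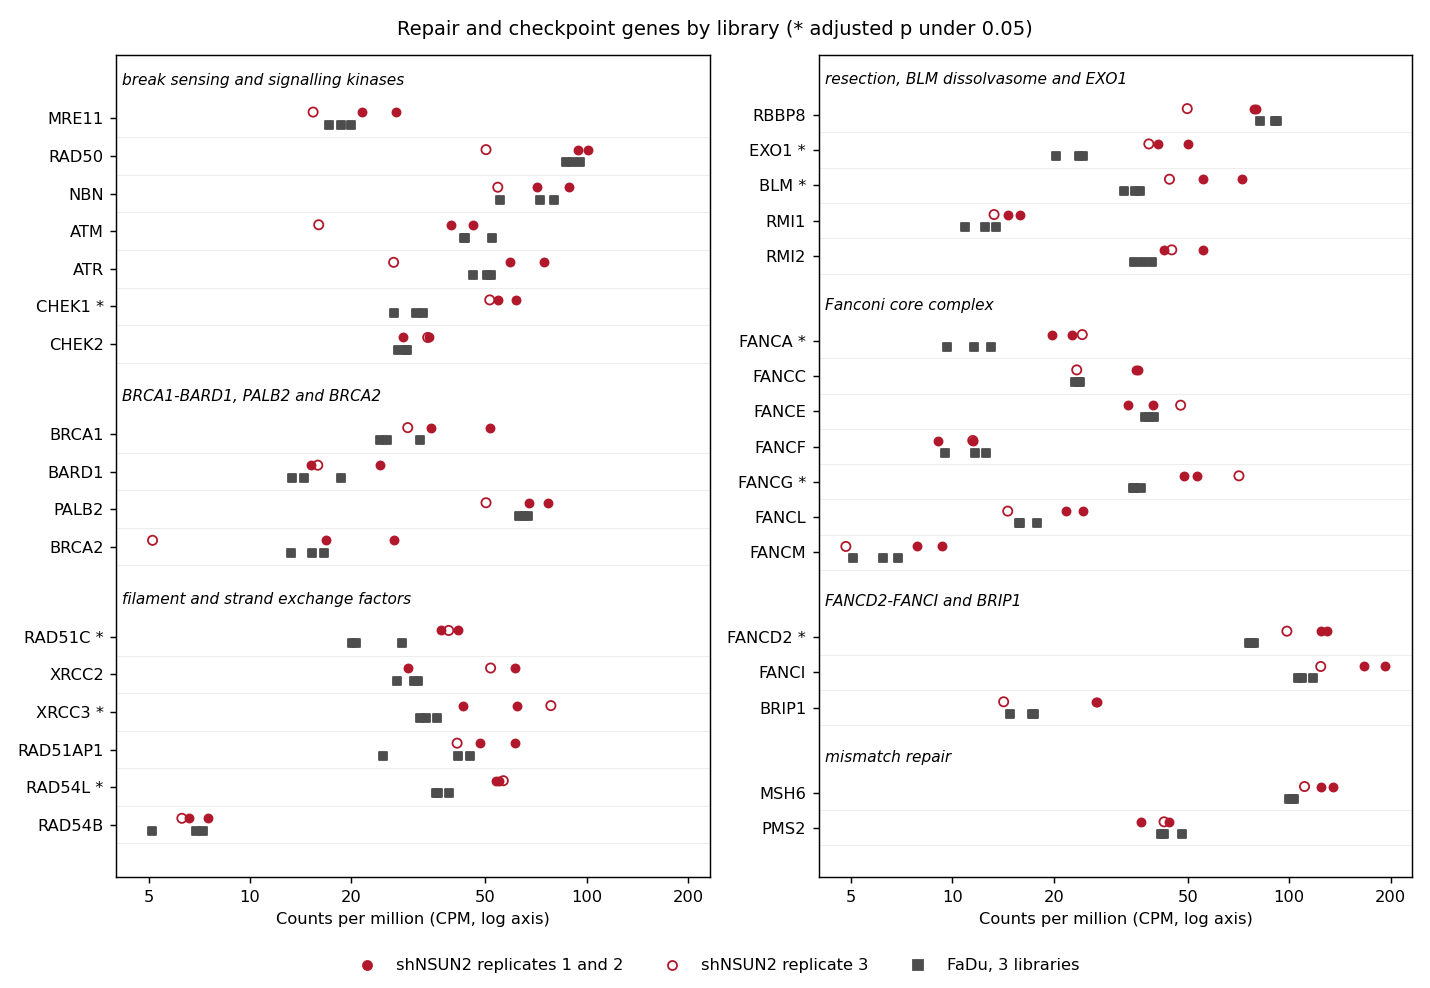
Level of each gene in each library, in CPM on a log axis, by role. Red circles are shNSUN2 (open for replicate 3), grey squares are FaDu, and a star marks the 9 genes called higher. The open circles lie far to the left for BRCA2, ATM, ATR and RAD50 and to the right for XRCC3 and FANCG.

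Among the sensors and signalling kinases, 1 of 7 rose. CHEK1, the effector kinase below ATR (chromosome 11, 125625136 to 125676255), had 61.7, 54.4 and 51.5 CPM in shNSUN2 against 26.7, 32.7 and 31.1 CPM in FaDu. Every shNSUN2 library was above every FaDu library. Its mean was 55.8 ± 5.26 CPM in shNSUN2 and 30.2 ± 3.15 CPM in FaDu (SD, n = 3), 1.85 times as high, with a log2 fold change of 0.89 (SE 0.14, adjusted p = 0.00522 by edgeR). ATR, the kinase that activates it (chromosome 3, 142449235 to 142578826), had 74.7, 59.3 and 26.7 CPM in shNSUN2 against 45.9, 52.0 and 50.5 CPM in FaDu, so that replicates 1 and 2 lay above and replicate 3 below the FaDu range. Its log2 fold change was 0.11 (SE 0.33, adjusted p = 0.844 by edgeR) with all libraries and 0.44 (edgeR adjusted p = 0.046) without shNSUN2 replicate 3.

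ATM, the kinase that answers to broken ends (chromosome 11, 108222484 to 108369102), had 45.8, 39.6 and 16.0 CPM in shNSUN2 against 43.4, 43.3 and 52.2 CPM in FaDu. The groups overlapped, and replicate 3 of shNSUN2 was the lowest library. Its log2 fold change was -0.45 (SE 0.35, adjusted p = 0.409 by edgeR), and -0.12 without shNSUN2 replicate 3. CHEK2, the effector kinase below ATM, had 33.9, 28.5 and 33.7 CPM in shNSUN2 against 29.3, 29 and 27.5 CPM in FaDu (log2 fold change 0.16, SE 0.13, adjusted p = 0.403 by edgeR). CHEK2 has pseudogene copies, so its counts are uncertain. The difference between the CHEK1 and CHEK2 fold changes was not tested.

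The MRE11-RAD50-NBN complex tethers broken ends and recruits ATM. None of its 3 subunits passed the test. RAD50 had 101, 94.1 and 50.2 CPM in shNSUN2 against 86.5, 95.3 and 90.1 CPM in FaDu, with replicate 3 of shNSUN2 again the lowest. MRE11 had 27.1, 21.5 and 15.4 CPM in shNSUN2 against 17.2, 18.6 and 20 CPM in FaDu, and NBN had 88.4, 71.0 and 54.4 CPM in shNSUN2 against 72.7, 79.8 and 55.2 CPM in FaDu. The groups overlapped for all 3. Their log2 fold changes were -0.15 (SE 0.24), 0.20 (SE 0.21) and 0.04 (SE 0.21) for RAD50, MRE11 and NBN. RAD50 shares 79.7% of its exonic bases with another annotated gene of the same strand, AC116366.3, which had 0.975, 0.353 and 0.0444 CPM in shNSUN2 and 0.997, 1.70 and 2.08 CPM in FaDu.

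None of the 4 genes that start filament loading at the break passed the test. BRCA1, which with BARD1 forms a ubiquitin ligase that promotes resection (chromosome 17, 43044295 to 43170245), had 34.5, 51.6 and 29.4 CPM in shNSUN2 against 24.4, 25.6 and 32.0 CPM in FaDu. Replicate 3 of shNSUN2 lay inside the FaDu range. Its log2 fold change was 0.49 (SE 0.22, adjusted p = 0.165 by edgeR), and it was called only with the offsets for GC content and length among the 13 alternatives (0.62, edgeR adjusted p = 0.0417). BARD1 had 24.3, 15.2 and 15.9 CPM in shNSUN2 against 18.6, 13.3 and 14.5 CPM in FaDu (log2 fold change 0.26, SE 0.22).

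PALB2, which links BRCA1 to BRCA2, had 76.8, 67.3 and 50.2 CPM in shNSUN2 against 62.8, 66.7 and 65.3 CPM in FaDu. Its means were 64.7 ± 13.5 CPM in shNSUN2 and 64.9 ± 2.00 CPM in FaDu (SD, n = 3). BRCA2, which loads the filament onto single strands (chromosome 13, 32315474 to 32400266), had 26.7, 16.8 and 5.14 CPM in shNSUN2 against 13.2, 15.3 and 16.6 CPM in FaDu. Replicates 1 and 2 of shNSUN2 were the 2 highest libraries and replicate 3 the lowest, and BRCA2 had the widest SE of the 34 (log2 fold change 0.11, SE 0.52, adjusted p = 0.908 by edgeR). Without shNSUN2 replicate 3 its log2 fold change was 0.54 (edgeR adjusted p = 0.127).

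The genes that stabilise and remodel the filament held the most calls, 3 of 6, and a median log2 fold change of 0.62. RAD51C, a subunit of complexes that assist the filament (chromosome 17, 58692573 to 58735611), had 41.4, 37.0 and 38.9 CPM in shNSUN2 against 20.6, 28.3 and 20.1 CPM in FaDu. No shNSUN2 library reached down to the FaDu range (log2 fold change 0.76, SE 0.16, adjusted p = 0.0174 by edgeR). The call was lost without FaDu replicate 1 or 3 or shNSUN2 replicate 1 (edgeR adjusted p = 0.0754, 0.0809 and 0.0581). XRCC3, its partner in one such complex (chromosome 14, 103697609 to 103715504), had 62.2, 42.9 and 78.2 CPM in shNSUN2 against 35.9, 32.0 and 33.2 CPM in FaDu. All shNSUN2 libraries were above the FaDu range, and replicate 3 was the highest (log2 fold change 0.86, SE 0.21, adjusted p = 0.0276 by edgeR). The call was lost without FaDu replicate 1, 2 or 3 or shNSUN2 replicate 1 (edgeR adjusted p = 0.075, 0.104, 0.102 and 0.0781). XRCC3 shares 76.7% of its exonic bases with KLC1 on the opposite strand, and whether counting kept the strand is not given in the sources used here. KLC1 had 104, 87.5 and 99.3 CPM in shNSUN2 against 103, 99.3 and 97.9 CPM in FaDu (log2 fold change -0.05, SE 0.12), and its groups overlapped.

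RAD54L, a motor that drives strand exchange (chromosome 1, 46247688 to 46278473), had 53.6, 55.0 and 56.5 CPM in shNSUN2 against 36.2, 38.9 and 35.7 CPM in FaDu. Replicates of each group lay close together, at 55.0 ± 1.47 CPM in shNSUN2 and 37.0 ± 1.71 CPM in FaDu (SD, n = 3), and the groups did not overlap. Its log2 fold change was 0.57 (SE 0.11, adjusted p = 0.0126 by edgeR), and the call was lost without FaDu replicate 1, 2 or 3 (edgeR adjusted p = 0.0656, 0.054 and 0.0715). RAD54L shares 25.1% of its exonic bases with LRRC41 on the opposite strand, which had a log2 fold change of -0.04 (SE 0.16). Its relative RAD54B had 7.53, 6.61 and 6.28 CPM in shNSUN2 against 6.91, 7.26 and 5.13 CPM in FaDu (log2 fold change 0.08, SE 0.19, adjusted p = 0.802 by edgeR). RAD54B shares 59.1% of its exonic bases with FSBP on the same strand, so its counts are uncertain. FSBP had 20.1, 18.1 and 13.3 CPM in shNSUN2 against 13.0, 13.1 and 13.9 CPM in FaDu (log2 fold change 0.36, SE 0.18).

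XRCC2, of the same family as XRCC3, had 61, 29.5 and 51.8 CPM in shNSUN2 against 30.7, 31.5 and 27.4 CPM in FaDu. Replicate 2 of shNSUN2 lay inside the FaDu range, and the log2 fold change of 0.67 (SE 0.25, adjusted p = 0.0991 by edgeR) became 0.92 (edgeR adjusted p = 0.0102) without that library. RAD51AP1, which stimulates the formation of joint molecules, had 48.1, 61.3 and 41.2 CPM in shNSUN2 against 41.4, 44.9 and 24.8 CPM in FaDu (log2 fold change 0.44, SE 0.24, adjusted p = 0.252 by edgeR).

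Of the 5 genes for resection and for taking apart joint molecules, 2 rose. EXO1, a nuclease that extends resection and also acts in mismatch repair (chromosome 1, 241847967 to 241895148), had 50, 40.9 and 38.3 CPM in shNSUN2 against 24.5, 23.7 and 20.3 CPM in FaDu. There was no overlap, and the mean was 43.1 ± 6.15 CPM in shNSUN2 and 22.9 ± 2.23 CPM in FaDu (SD, n = 3), with a log2 fold change of 0.91 (SE 0.15, adjusted p = 0.00686 by edgeR). BLM, the helicase that dissolves crossed strands (chromosome 15, 90717327 to 90816165), had 72.2, 55.3 and 44.1 CPM in shNSUN2 against 34.9, 36.0 and 32.3 CPM in FaDu. Even replicate 3, the lowest of shNSUN2, was above all FaDu libraries (log2 fold change 0.73, SE 0.18, adjusted p = 0.0299 by edgeR). BLM was called in 1 of the 6 fits that left out a library, the one without shNSUN2 replicate 3 (edgeR adjusted p = 0.00586). In the fits without FaDu replicate 1, 2 or 3 or shNSUN2 replicate 1 or 2 it had adjusted p = 0.0918, 0.0916, 0.114, 0.0687 and 0.0538 by edgeR.

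BLM works with RMI1 and RMI2. RMI2 had 42.5, 55.6 and 44.8 CPM in shNSUN2 against 36.9, 39.1 and 34.6 CPM in FaDu. No library of one group reached the other, but the test was not passed (log2 fold change 0.37, SE 0.14, adjusted p = 0.108 by edgeR). RMI1 had 15.9, 14.6 and 13.3 CPM in shNSUN2 against 13.5, 12.5 and 10.9 CPM in FaDu (log2 fold change 0.25, SE 0.15). RBBP8, also known as CtIP, starts resection together with the MRE11 complex (chromosome 18, 22798261 to 23026488). It was the only one of the 34 with every shNSUN2 library below every FaDu library, at 79.6, 78.8 and 49.8 CPM in shNSUN2 against 82.1, 92.1 and 90.9 CPM in FaDu (log2 fold change -0.35, SE 0.19, adjusted p = 0.238 by edgeR). Without shNSUN2 replicate 3 it was at -0.16 (edgeR adjusted p = 0.258).

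The Fanconi core complex is the ligase that marks FANCD2 and FANCI. Of its 7 genes here, 2 rose. FANCA (chromosome 16, 89737549 to 89816657) had 22.7, 19.8 and 24.3 CPM in shNSUN2 against 13.0, 11.6 and 9.63 CPM in FaDu. The groups did not overlap, and its mean was 22.3 ± 2.32 CPM in shNSUN2 and 11.4 ± 1.68 CPM in FaDu (SD, n = 3), 1.95 times as high. Its log2 fold change of 0.97 (SE 0.16, adjusted p = 0.00774 by edgeR) was the highest of the 34 in the fit of all 6 libraries. FANCA shares 23.6% of its exonic bases with ZNF276 on the opposite strand, which had a log2 fold change of 0.26 (SE 0.20). FANCG (chromosome 9, 35073835 to 35080016), which binds FANCA in the complex, had 53.1, 48.6 and 70.9 CPM in shNSUN2 against 36.2, 34.3 and 34.6 CPM in FaDu. Every shNSUN2 value exceeded every FaDu value (log2 fold change 0.72, SE 0.16, adjusted p = 0.0203 by edgeR). The FANCG call was lost without FaDu replicate 1, 2 or 3 (edgeR adjusted p = 0.0684, 0.0852 and 0.0878).

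The other core genes did not pass the test. FANCL, the catalytic ligase subunit, had 21.7, 24.5 and 14.6 CPM in shNSUN2 against 15.9, 17.8 and 15.8 CPM in FaDu (log2 fold change 0.30, SE 0.20). FANCC had 35.6, 35.2 and 23.4 CPM in shNSUN2 against 24.0, 23.8 and 23.1 CPM in FaDu, with replicate 3 of shNSUN2 inside the FaDu range (log2 fold change 0.41, SE 0.18, adjusted p = 0.151 by edgeR). Without shNSUN2 replicate 3, FANCC and FANCL were called at log2 fold changes of 0.58 and 0.49 (edgeR adjusted p = 0.00734 and 0.0317). FANCE, which binds FANCC, had 33.3, 39.4 and 47.6 CPM in shNSUN2 against 39.8, 37.2 and 38.4 CPM in FaDu (log2 fold change 0.06, SE 0.15). FANCF had 11.5, 9.04 and 11.5 CPM in shNSUN2 against 11.7, 9.51 and 12.6 CPM in FaDu (log2 fold change -0.08, SE 0.18). FANCM, the helicase that anchors the complex on DNA, had 9.31, 7.87 and 4.83 CPM in shNSUN2 against 6.90, 5.08 and 6.24 CPM in FaDu (log2 fold change 0.27, SE 0.26). FANCE and FANCF had fold changes smaller than their SE. The differences between the fold changes of the core genes were not tested.

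FANCD2 (chromosome 3, 10026414 to 10101930) had 129, 124 and 98.4 CPM in shNSUN2 against 76.8, 78.7 and 75.7 CPM in FaDu. All 3 shNSUN2 libraries were higher than all FaDu libraries, and its mean was 117 ± 16.3 CPM in shNSUN2 and 77.1 ± 1.49 CPM in FaDu (SD, n = 3), with a log2 fold change of 0.60 (SE 0.13, adjusted p = 0.0196 by edgeR). It was lost without FaDu replicate 1, 2 or 3 or shNSUN2 replicate 1 (edgeR adjusted p = 0.0786, 0.0789, 0.0883 and 0.0604). A pseudogene copy of FANCD2 makes its counts uncertain. Its partner FANCI (chromosome 15, 89243949 to 89317261) had 193, 167 and 124 CPM in shNSUN2 against 106, 118 and 109 CPM in FaDu. The groups did not overlap, and the log2 fold change of 0.54 (SE 0.17) had an edgeR adjusted p = 0.061. Without shNSUN2 replicate 3 FANCI was called (0.71, edgeR adjusted p = 0.0046). BRIP1, the helicase FANCJ that binds BRCA1, had 26.7, 26.8 and 14.2 CPM in shNSUN2 against 17.2, 17.5 and 14.8 CPM in FaDu. Replicate 3 of shNSUN2 was the lowest library, and the log2 fold change of 0.45 (SE 0.25, adjusted p = 0.239 by edgeR) was 0.70 (edgeR adjusted p = 0.00921) without it.

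In mismatch repair, MSH6, which recognises mismatches (chromosome 2, 47695530 to 47810101), had 135, 124 and 111 CPM in shNSUN2 against 99.7, 103 and 102 CPM in FaDu. The groups did not overlap (log2 fold change 0.28, SE 0.12, adjusted p = 0.133 by edgeR), and MSH6 was called without shNSUN2 replicate 3 (0.36, edgeR adjusted p = 0.021). It shares 16.2% of its exonic bases with FBXO11 on the opposite strand, which had a log2 fold change of -0.17 (SE 0.14). PMS2, a subunit of the endonuclease that follows, had 44.0, 36.2 and 42.5 CPM in shNSUN2 against 42.6, 41.6 and 47.9 CPM in FaDu (log2 fold change -0.11, SE 0.13). PMS2 has many pseudogene copies, so its counts are uncertain.

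**Figure D2:**
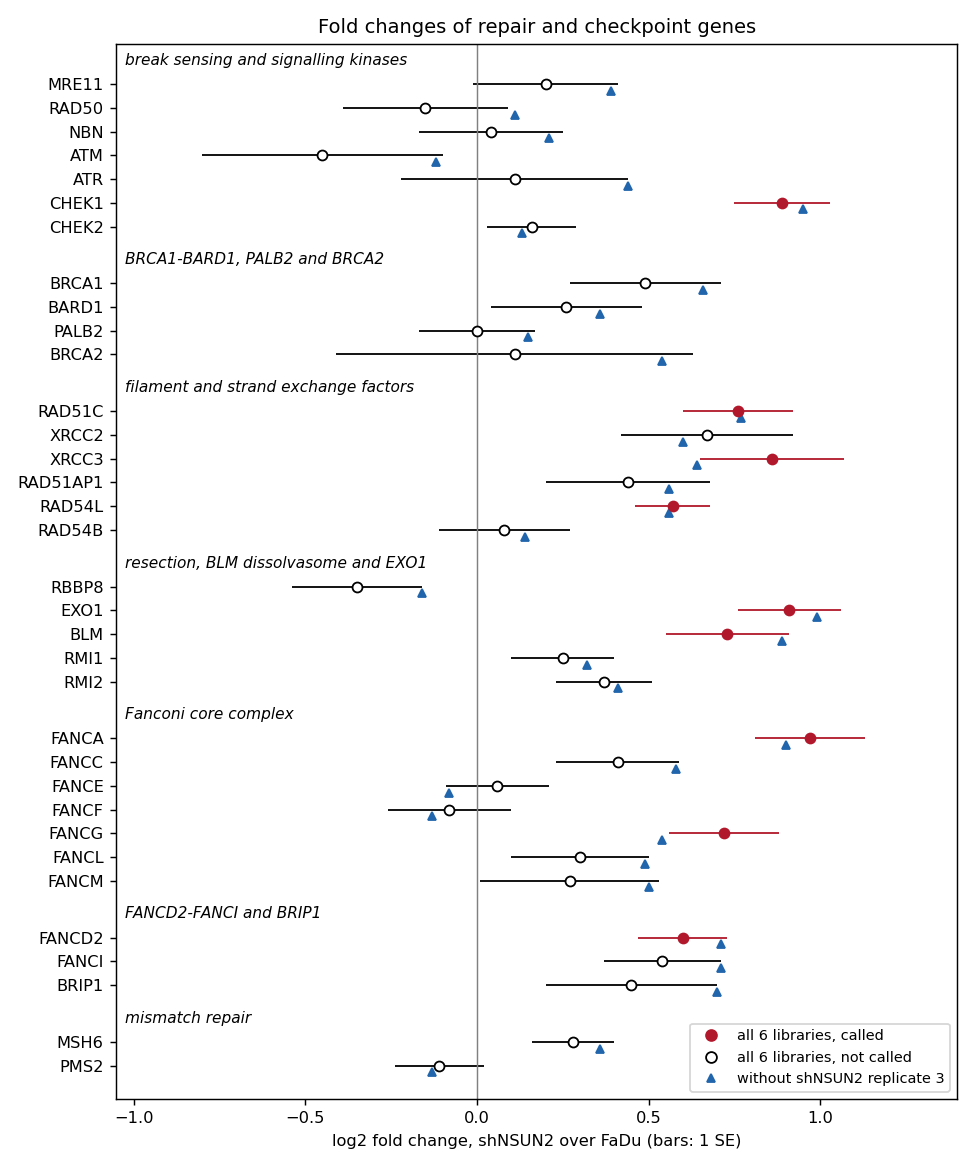
Log2 fold change of each gene, shNSUN2 over FaDu, with 1 SE from the edgeR fit of all 6 libraries (red where called) and, as blue triangles, the value without shNSUN2 replicate 3. The 9 called genes lie between 0.57 and 0.97, and the triangles of BRCA2 and ATM lie to the right of their circles.

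On the scale of CPM per kilobase of the longest annotated transcript, FANCI was the highest in shNSUN2 (34.1 ± 7.44), followed by RMI2 (25.5 ± 3.74), RAD51AP1 (22.5 ± 4.57), FANCD2 (22.4 ± 3.11), FANCG (21.9 ± 4.48) and RBBP8 (21.1 ± 5.16; SD, n = 3). These neighbours below FANCI differed by less than their spread. In FaDu the highest level was that of RBBP8 (26.8 ± 1.65), then FANCI (23.4 ± 1.39) and RMI2 (19.8 ± 1.18), while FANCG stood at 13.3 ± 0.390. FANCM and BRCA2 had the lowest levels in both groups, those of FANCM being 1.03 ± 0.322 in shNSUN2 and 0.854 ± 0.129 in FaDu and those of BRCA2 1.35 ± 0.901 in shNSUN2 and 1.25 ± 0.142 in FaDu. Next above them stood RAD54B in shNSUN2 (2.22) and FANCA in FaDu. FANCA was at 4.08 in shNSUN2 and 2.09 in FaDu. These levels assume that the longest transcript is the one expressed.

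The libraries of shNSUN2 differed among themselves in these genes. Replicate 1 had 29 of the 34 above the highest FaDu library and 2 below the lowest. Replicate 2 had 23 above and 4 below, and replicate 3 had 15 above and 11 below. The matching shares over all genes were not taken for single libraries. These counts therefore set the 3 libraries side by side and do not set the 34 apart from other genes. Summed over the 34, the level was 1845, 1659 and 1399 CPM in shNSUN2 replicates 1, 2 and 3 against 1294, 1356 and 1280 CPM in FaDu replicates 1, 2 and 3. Replicate 3 was the lowest shNSUN2 library for 22 of the 34. Across the 34 genes, the log2 ratio of replicate 3 to the mean of replicates 1 and 2 had a Spearman rho of 0.614 with the GC content of the longest transcript and -0.607 with its length. These values share the same 3 libraries and describe them only. The ratio was -2.08 for BRCA2 (36.26% GC), -1.41 for ATM, -1.33 for ATR and -0.96 for RAD50, and it was 0.57 for XRCC3 (63.79% GC), 0.48 for FANCG and 0.39 for FANCE. With all libraries, the log2 fold change over the 34 had a rho of 0.308 with GC content and -0.101 with length. Without replicate 3 the median log2 fold change of the 34 was 0.50, against -0.02 for all genes tested, and 15 were called higher (44.1%, against 10.5% of all genes). The 6 additional genes were ATR, BRIP1, FANCC, FANCI, FANCL and MSH6.

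**Figure D3:**
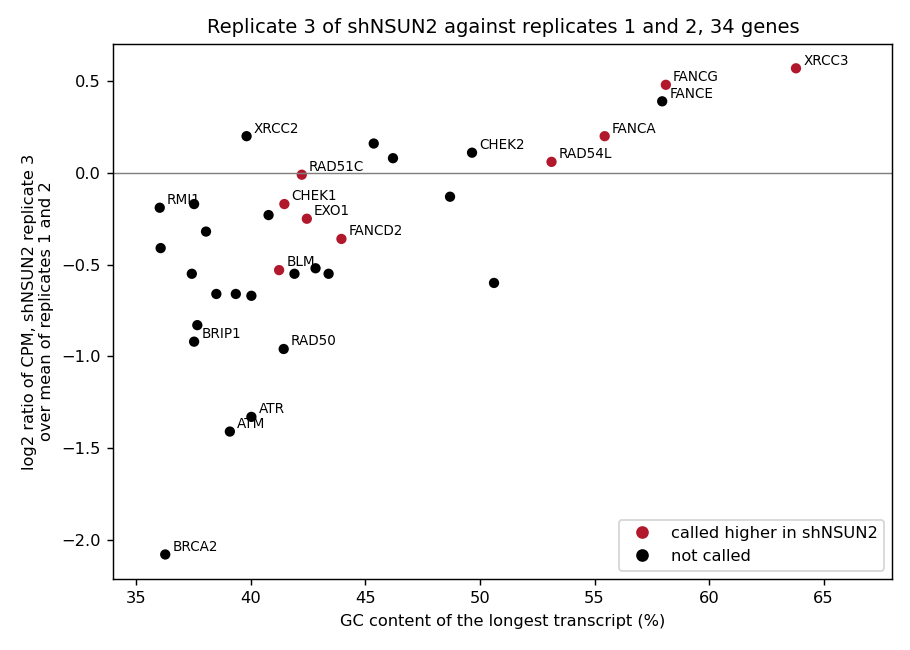
Log2 ratio of CPM in shNSUN2 replicate 3 over the mean of replicates 1 and 2 against GC content, 1 point for each of the 34 genes, red for the 9 called higher. The ratio reaches -2.08 for BRCA2 and 0.57 for XRCC3, the gene with the highest GC content.

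Other genes of recombination and crosslink repair were read from a list of 36. Of the 35 tested, 7 rose and 1 fell, with a median log2 fold change of 0.27. For comparison, 5 of the 26 housekeeping genes rose (19.2%), with a median log2 fold change of 0.29. Among all genes tested, 8.54% were called higher. DNA2, a nuclease and helicase of resection, rose by a log2 fold change of 0.80 (SE 0.16) and CENPX, a DNA-binding partner of FANCM, by 1.12 (SE 0.22). Both calls were lost without FaDu replicate 2 or 3 (edgeR adjusted p = 0.0653 and 0.0625 for DNA2, 0.0586 and 0.0651 for CENPX). BABAM2, a scaffold of the BRCA1-A complex, fell, with 20.8, 21.0 and 23.2 CPM in shNSUN2 against 31.0, 31.6 and 34.1 CPM in FaDu (log2 fold change -0.57, SE 0.12, adjusted p = 0.0172 by edgeR). It was called in 2 of the 6 fits that left out a library, those without shNSUN2 replicate 2 or 3. Leaving out FaDu replicate 1, 2 or 3 left 2, 0 and 0 genes of the list of 36 called higher. Leaving out shNSUN2 replicate 1, 2 or 3 left 3, 7 and 9.

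Of 24 other checkpoint genes, 8 rose (33.3%, against 8.54% of all genes) and 1 fell. CDC25A, the phosphatase that CHEK1 marks for destruction, had 44.9, 30.0 and 55.9 CPM in shNSUN2 against 12.5, 15.9 and 14.6 CPM in FaDu (log2 fold change 1.61, SE 0.23, adjusted p = 0.00398 by edgeR). TIMELESS and TIPIN, the pair that protects replication forks and helps ATR to activate CHEK1, rose by 0.67 (SE 0.10) and 1.09 (SE 0.22). TIPIN was lost without shNSUN2 replicate 1 or FaDu replicate 3 (edgeR adjusted p = 0.0511 and 0.058). CDKN1A, the p21 inhibitor of cyclin-dependent kinases and a target of p53, fell, with 43.3, 43.6 and 61 CPM in shNSUN2 against 87.1, 85.5 and 80.3 CPM in FaDu (log2 fold change -0.77, SE 0.16, adjusted p = 0.0156 by edgeR). CDKN1A was called in 2 of the 6 fits that left out a library, those without shNSUN2 replicate 2 or 3. Without FaDu replicate 1, 2 or 3 the list had 4, 3 and 2 calls higher; without shNSUN2 replicate 1, 2 or 3 it had 5, 8 and 9.

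In 3 other repair pathways 15.4% to 21.1% of the tested genes rose, against 8.54% of all genes and 19.2% of the housekeeping genes. Of 13 end-joining genes 2 rose, XRCC5 and XRCC6, the subunits of the Ku ring that holds broken ends, by 0.56 (SE 0.11) and 0.45 (SE 0.11), and 1 fell, APLF, a scaffold of the same pathway, at -1.34 (SE 0.34). APLF had low levels, with means of 1.31 CPM in shNSUN2 and 3.30 CPM in FaDu. PAXX, a factor that binds Ku, was at 0.52 (SE 0.20) and did not pass. None of the 3 was called without FaDu replicate 1, 2 or 3.

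Of 19 base excision genes 4 rose and 1 fell. FEN1, the flap nuclease also used in replication, had 219, 181 and 268 CPM in shNSUN2 against 104, 95.2 and 96.5 CPM in FaDu (log2 fold change 1.18, SE 0.16, adjusted p = 0.00292 by edgeR). PARP1, which senses nicks, rose by 0.53 (SE 0.11) and TDG, a thymine DNA glycosylase, by 1.11 (SE 0.30). NEIL1, a glycosylase for oxidised bases, fell, with a log2 fold change of -1.71 (SE 0.29, adjusted p = 0.00738 by edgeR). Its levels were low, with means of 0.849 CPM in shNSUN2 and 2.78 CPM in FaDu. NEIL1 was called in all 6 fits that left out a library (edgeR adjusted p = 0.0105 to 0.0386). PARP1 was lost without FaDu replicate 1, 2 or 3 (edgeR adjusted p = 0.0617, 0.0742 and 0.0827), and TDG kept its call in 1 of the 6 fits that left out a library. Without FaDu replicate 1, 2 or 3 the 4 were 2, 1 and 1, and 2 without shNSUN2 replicate 1. Of 18 nucleotide excision genes 3 rose and none fell. They were ERCC8, a factor of repair in transcribed genes, at 0.66 (SE 0.13), ERCC3, a helicase of TFIIH, at 0.53 (SE 0.12) and RAD23B, a partner of XPC, at 0.37 (SE 0.10), with GTF2H1 of TFIIH at 0.38 (SE 0.12) not past the test. None of the 3 was called without FaDu replicate 1, 2 or 3, and 1 was without shNSUN2 replicate 1.

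Genes of proliferating cells moved beside the repair genes. Of 17 proliferation markers 10 rose (58.8%, against 8.54% of all genes), none fell and the median log2 fold change was 0.65. PCNA and RRM2, which are active in replication, rose by 1.13 (SE 0.12) and 1.33 (SE 0.15), MCM2 by 1.15 (SE 0.16) and MYBL2, a transcription factor of the cell cycle, by 1.35 (SE 0.20), and these 4 were called in all 6 fits that left out a library. Of 26 housekeeping genes 5 rose (19.2%) and 1 fell, with PSMB2, SNRPD3 and PPIA at 1.02, 0.77 and 0.61. PPIA was lost without FaDu replicate 3 (edgeR adjusted p = 0.053). Of the housekeeping genes 3, 3 and 2 were called higher without FaDu replicate 1, 2 or 3. The count was 6 without any single shNSUN2 replicate. The part of proliferation in the rise of the repair genes was not tested.

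**Figure D4:**
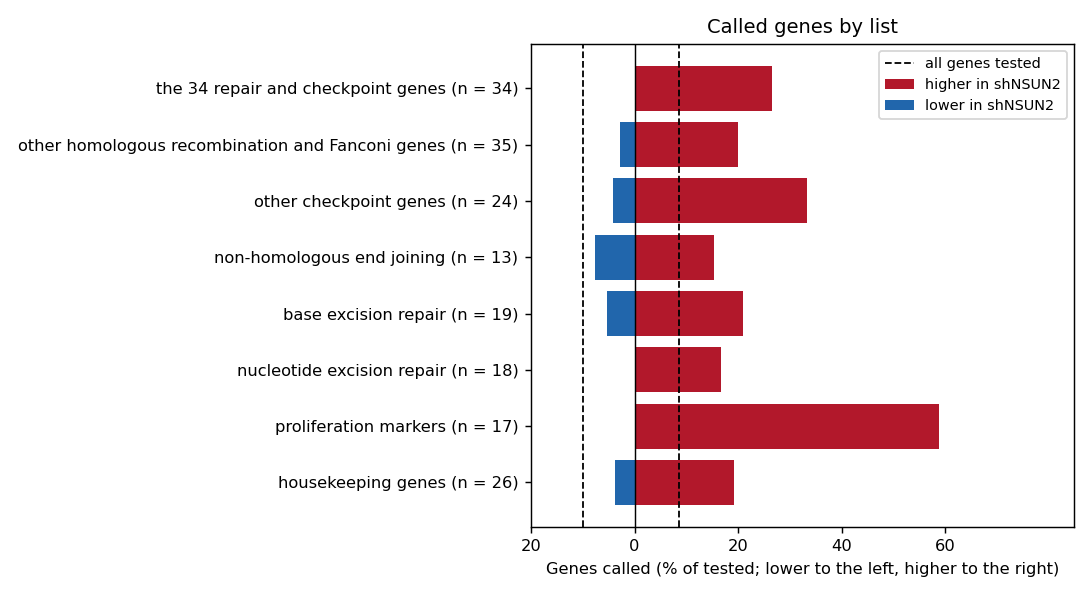
Share of tested genes called higher (red, to the right) and lower (blue, to the left) in shNSUN2, for the 34 genes and for 7 other lists. Dashed lines are the shares over all genes tested, 8.54% higher and 9.97% lower; the proliferation markers reach 58.8%, the 34 genes 26.5% and the housekeeping genes 19.2%.

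**Figure D5:**
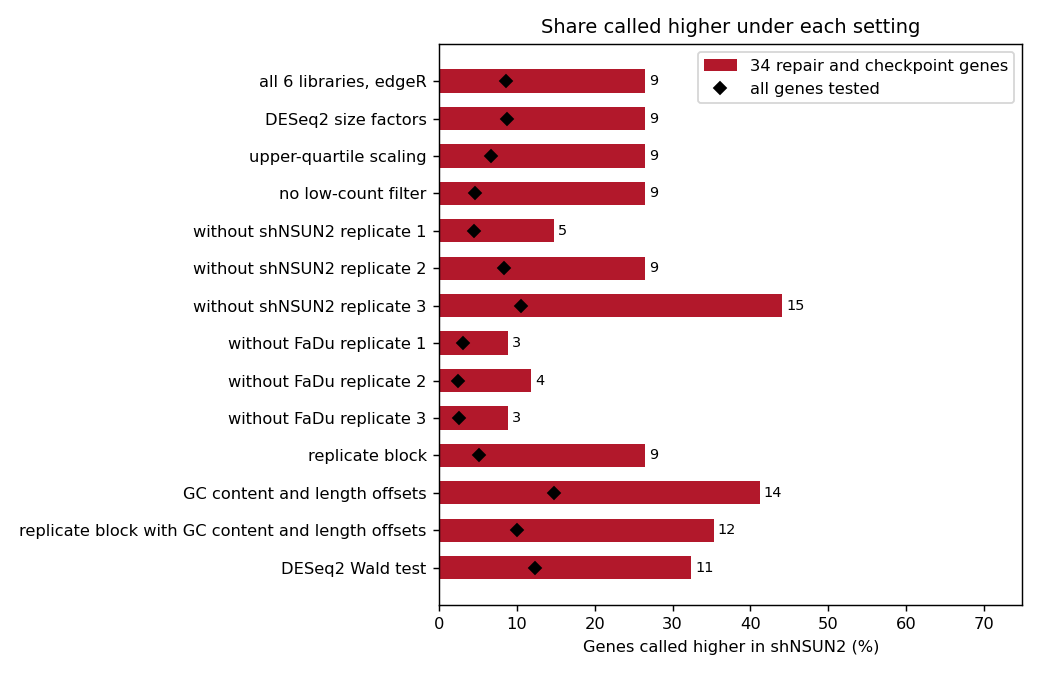
Share of the 34 genes called higher in shNSUN2 (bars, with the number of genes) and of all genes tested (diamonds) with all 6 libraries and under each of 13 alternatives. The bars run from 3 genes without FaDu replicate 1 or 3 to 15 genes without shNSUN2 replicate 3.

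With DESeq2 size factors, upper-quartile scaling, no low-count filter or the replicate block, 9 of the 34 were called higher, where 8.73%, 6.59%, 4.52% and 5.08% of all genes were. DESeq2's Wald test called 11, adding FANCI and XRCC2, with 12.3% of all genes called higher. Offsets for GC content and length called 14, adding BRCA1, BRIP1, FANCC, FANCI and MSH6, with 14.8% of all genes called higher. Of all calls, 56.1% were higher with the offsets and 36.2% with upper-quartile scaling, against 46.1% in the fit of all 6 libraries without either. Without FaDu replicate 1, 2 or 3 the share was 39.2%, 35.3% and 36.4%. Leaving out the 9 of the 34 that share 10% or more of their exonic bases with another gene, 6 of 25 rose (24.0%), none fell and the median log2 fold change was 0.37. The 3 called genes set aside were XRCC3, RAD54L and FANCA. Also set aside were ATR, FANCF and FANCL, which share 16.4%, 11.3% and 18.7% of their exonic bases with AC109992.1, GAS2 and VRK2 on the opposite strand. MRE11, RAD51AP1 and RBBP8 have pseudogene copies by name, so their counts are uncertain.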

How the data were processed

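Per the deposited table, the authors gave an estimated count for each of 58825 Ensembl genes in 6 libraries, all whole numbers, which needed no rounding; no row names anything but a gene. Because the value 4 was 3.25 to 3.81 times as frequent as its neighbours 3 and 5 on average, low values are not plain read counts and no counting interval is given. Tools named in the submitters' processing notes are Bowtie 0.12.2, HISAT2 2.0 and StringTie 1.3.0, without roles, beside the mouse build mm8, which cannot have produced human identifiers. The human annotation used, and whether strand was kept, is not given in the sources used here.

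A table of gene names gave symbols for 58472 identifiers. GENCODE 29 on GRCh38 held 58552 and supplied positions, lengths, overlaps and GC content. The test was edgeR 4.0.16 (R 4.3.3; glmQLFit and glmQLFTest, robust, TMM scaling), with group as the only term and filterByExpr set to a minimum count of 10 and a minimum total of 15. Benjamini-Hochberg adjustment ran over 19081 genes, and a call is a two-sided adjusted p under 0.05. SE is the size of the log2 fold change over the square root of F. CPM use TMM-adjusted totals. Alternatives were DESeq2 1.42.0, other scalings, no filter, each library left out, a replicate block, and offsets from splines on GC content and length for each library (19033 genes). The design had been written for raw counts, and the same test was kept for the estimated counts. Members and lists were chosen with earlier results of these data known. The genes named are NSUN2, the 34 members and up to 4 genes of each other list with the smallest adjusted p; genes that share exonic bases with a member were named after their values were seen. Some genes that this rule names are not reported here.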

Additional observations from a re-analysis of the deposited data

How the results depend on the processing

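For the 34 genes, the same 9 calls held with DESeq2 size factors, upper-quartile scaling, no low-count filter and the replicate block. The labels do not say whether same-numbered libraries are pairs. Deviations of same-numbered libraries from their group means correlated at -0.0308, 0.0161 and 0.0138. These values show no deviation shared by number, but they cannot show that the samples were not made as pairs. With the replicate block, 969 genes were called higher over the whole table, against 1629 without it. With GC content and length offsets 14 of the 34 and 2812 of all genes were called higher. Leaving out 1 library gave 3 to 15 of the 34, and 478 to 2090 genes higher and 861 to 2181 lower over the whole table.

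The median log2 fold change of the 34 (0.29) was 0.21 with upper-quartile scaling, 0.38 with the offsets, with or without the block, and 0.23 to 0.50 without 1 library. Set against the housekeeping genes it was 0.001. Signs turned only for genes that were not called: NBN (-0.037) and FANCE (-0.018) with upper-quartile scaling, ATR (-0.004) and BRCA2 (-0.15) with the replicate block, PALB2 with DESeq2 size factors and the Wald test (0.002 in both), with the offsets (0.057) and with block and offsets (0.047), and PMS1 with the offsets (0.068) and with both (0.064). Without 1 library the log2 fold changes of genes whose sign turned ranged as follows: MRE11 -0.005 to 0.39, RAD50 -0.33 to 0.11, NBN -0.14 to 0.21, ATR -0.2 to 0.44, PALB2 -0.14 to 0.15, BRCA2 -0.46 to 0.54, RAD54B -0.06 to 0.18, FANCE -0.078 to 0.18, FANCF -0.19 to 0.026, MLH3 -0.45 to 0.001, PMS1 -0.19 to 0.072. PMS1 and MLH3 are mismatch repair genes outside the 34. With all 6 libraries they had log2 fold changes of -0.02 (SE 0.18) and -0.23 (SE 0.23). The cause of the turned signs was not tested. NSUN2 was called in each fit without 1 library, at -2.15 to -1.88. The lowest estimated counts are coarse, which limits the folds of genes with only a few counts.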
